A study of Mus musculus with 2 samples.

Results

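Pairs of neighbouring coding genes that are transcribed towards each other were examined for trimethylation of lysine 36 of histone H3 (H3K36me3) in mouse embryonic stem cells. A tail-to-tail pair was taken as 2 adjacent protein-coding genes of GENCODE M21 on opposite strands whose 3′ ends face each other across a gap of 0 to 5 kb, with no overlap. This position rule gave 1504 pairs among 4823 adjacent coding pairs with such a gap, beside 2271 tandem pairs (same strand) and 1048 head-to-head pairs (5′ ends facing). The 1504 pairs hold 3008 of 21911 coding genes (13.7%), and in 8 of them the genes abut with no base between them. The rule used annotation alone and no measured value.

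The cells were E14TG2a.4, a male embryonic stem cell line of strain 129/Ola, labelled as of embryonic stage with an age of 3.5 day, with no treatment or genetic change named. Chromatin immunoprecipitation with an H3K36me3 antibody was sequenced in 2 biological replicates from separate biosamples that trace back to 1 donor, which form 1 group. Each replicate's own called peaks on mm10 were used, 107779 in replicate 1 (139 Mb covered) and 98185 in replicate 2 (127 Mb). Read depth is unknown, so no counting error can be attached to a covered share.

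H3K36me3 is laid down by SETD2, which travels with elongating RNA polymerase II, and the mark is known to build up towards the 3′ end of transcribed genes. RNA polymerase commonly runs on past the polyadenylation site before it is released. In a tail-to-tail pair the polymerases of both genes head into the same stretch of DNA, which lies downstream of both genes and holds no promoter of the pair.

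The gaps of 4 pairs show the range that was found, and their plus-strand reference sequences follow 5′ to 3′ (GRCm38, the assembly that mm10 names). Capitals mark bases inside peaks of both replicates and lower case marks the others. In each line the first-named gene lies to the left on the plus strand and the second to the right on the minus strand. Hirip3/Taok2 (chr7:126865378-126865677) and Naaladl1/Sac3d1 (chr19:6115793-6115999) were chosen as pairs with both genes covered and the gap wholly covered. Polr3f/Rbbp9 (chr2:144541996-144542264) is a pair with both genes covered and the gap bare. Spata21/Szrd1 (chr4:141112761-141113000) is a pair in which Szrd1 alone was called marked, by the threshold given below, and Spata21 was covered in part.

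Hirip3/Taok2: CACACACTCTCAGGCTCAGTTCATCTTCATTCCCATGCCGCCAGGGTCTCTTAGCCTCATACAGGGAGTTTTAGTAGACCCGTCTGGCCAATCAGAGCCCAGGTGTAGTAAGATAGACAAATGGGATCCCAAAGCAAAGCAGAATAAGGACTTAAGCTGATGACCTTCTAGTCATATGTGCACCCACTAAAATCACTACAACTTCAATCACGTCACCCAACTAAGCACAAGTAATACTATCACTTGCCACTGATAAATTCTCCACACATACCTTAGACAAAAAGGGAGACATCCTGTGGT
Naaladl1/Sac3d1: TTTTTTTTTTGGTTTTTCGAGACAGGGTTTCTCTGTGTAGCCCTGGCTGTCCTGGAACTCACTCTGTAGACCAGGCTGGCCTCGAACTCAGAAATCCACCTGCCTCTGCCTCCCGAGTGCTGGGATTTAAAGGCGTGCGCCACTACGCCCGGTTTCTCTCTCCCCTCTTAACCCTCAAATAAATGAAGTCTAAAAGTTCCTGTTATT
Polr3f/Rbbp9: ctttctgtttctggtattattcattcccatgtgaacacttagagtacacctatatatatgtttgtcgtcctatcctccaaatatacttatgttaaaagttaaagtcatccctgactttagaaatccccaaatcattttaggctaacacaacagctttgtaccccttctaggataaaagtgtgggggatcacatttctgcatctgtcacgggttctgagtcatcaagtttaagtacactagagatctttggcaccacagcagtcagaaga
Spata21/Szrd1: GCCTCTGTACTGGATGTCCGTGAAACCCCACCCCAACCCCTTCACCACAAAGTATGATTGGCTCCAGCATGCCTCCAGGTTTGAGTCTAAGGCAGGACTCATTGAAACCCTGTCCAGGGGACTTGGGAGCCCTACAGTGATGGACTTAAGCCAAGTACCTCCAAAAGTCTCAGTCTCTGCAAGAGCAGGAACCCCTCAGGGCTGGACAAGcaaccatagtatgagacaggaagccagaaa

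The first pair, Hirip3 with the kinase gene Taok2, was covered over all 300 bases of its gap, and the second over all 207 bases. In each of them the 3′ part of each gene, meaning the last of 3 equal parts of its body, was covered to 100% in each replicate. The gap of Polr3f, a subunit gene of RNA polymerase III, and Rbbp9 had 0 of 269 bases in peaks, although the 3′ part of Polr3f was covered to 90.0% and 77.4% in replicates 1 and 2 and that of Rbbp9 to 83.7% and 84.6%. In the 240-base gap of Spata21 and Szrd1, 210 bases lay in peaks of replicate 1 and 222 in those of replicate 2. The bases outside the peaks shared by the replicates lie at the right end, beside the 3′ end of Szrd1, the marked gene. The polyadenylation hexamer AATAAA was searched on both strands (TTTATT on the plus strand). It occurs 1 time in the Naaladl1/Sac3d1 gap and in none of the other gaps printed. Among tail-to-tail gaps of 100 to 300 bp, 16 of 137 (11.7%) hold it, against 12 of 120 tandem gaps (10%) and 10 of 282 head-to-head gaps (3.55%). The median GC content of these gaps was 50.5%, 57.4% and 61.7% in the same order, and its part in the hexamer shares was not tested. A hexamer found in this way is a run of letters and not a mapped site.

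A gene was called marked where peaks of each replicate covered 10% or more of its body. Of all coding genes 37.2% were marked in each replicate, 38.9% in replicate 1 and 38% in replicate 2. Of the genes in tail-to-tail pairs 1570 were marked (52.2%). Both genes were marked in 494 pairs (32.8%), 1 gene in 582 (38.7%) and neither gene in 428 (28.5%). Over adjacent pairs of any orientation both genes were marked in 33.9%, so the tail-to-tail share lies near that background. With the call made in 1 replicate at a time, both genes were marked in 540 pairs in replicate 1 and 521 in replicate 2, and 1401 pairs (93.2%) had the same class in each. The cell label was checked with 10 stem cell marker genes, all of which were marked (median covered body 69.7%), and with 14 fibroblast genes, none of which had a covered base.

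Marks of the partners went together. A gene in a tail-to-tail pair was marked in 62.9% of cases where its partner was marked and in 40.5% where the partner was not. The same shares were 63.8% and 33.3% in tandem pairs and 70.9% and 44.0% in head-to-head pairs, so a marked partner is no feature of tail-to-tail pairs alone. In pairs with 1 marked gene it was the plus-strand gene in 299 and the minus-strand gene in 283. Both-marked pairs had shorter gaps (median 1158 bp) than pairs with 1 (1730.5 bp) or neither gene marked (1871.5 bp). Their genes were also shorter, with a median of 14.1 kb against 20.8 and 15.1 kb in the other classes and 17.4 kb over all coding genes. By chromosome the share of both-marked pairs ran from 7 of 41 (17.1%) on chromosome 13 to 37 of 84 (44.0%) on chromosome 17, and it was 7 of 36 (19.4%) on chromosome X.

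When both genes were marked, the gap was on average covered about as far as their 3′ parts (78.1% in plus-strand and 79.2% in minus-strand genes). Gaps over 2 kb were covered less (64.5%). Over all 494 gaps the mean was 81.7% in replicate 1 and 78.4% in replicate 2 (80.1% ± 2.36, SD, n = 2), with medians of 100% and 99.9%. With 1 gene marked it was 39.2% and 36% (37.6% ± 2.28; 579 gaps). With neither marked it was 1.97% and 1.52% (1.75% ± 0.315; 423 gaps). The step from 1 to both marked genes was 42.4 ± 0.0871 percentage points and that from neither to 1 was 35.9 ± 1.96 points, each many times the SD between replicates. Here and below, 2 replicates of 1 group allow no useful test (the smallest p of an exact sign-flip test is 0.5), so differences are set against the SD over the replicates. Pairs are not replicates. The neither-marked value depends on the threshold. It was 0.979% when marked meant at least 5% of the body and 6.37% when it meant at least 25%.

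**Figure D1:**
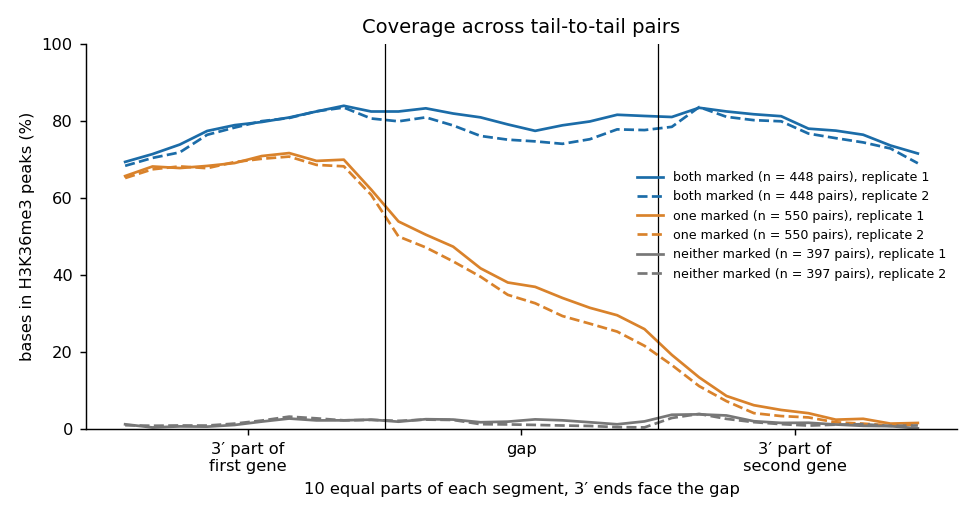
Percent of bases in H3K36me3 peaks (y axis) in 10 equal parts of the 3′ part of the first gene, of the gap and of the 3′ part of the second gene (x axis), for pairs with a gap of at least 100 bp. Solid lines are replicate 1 and dashed lines replicate 2. The first gene is the plus-strand gene, or the marked gene in pairs with 1 marked gene. As means of the replicates, pairs with both genes marked stay between 68.9% and 83.7% throughout, while in pairs with 1 marked gene the coverage falls through the gap from 52.0% to 23.8%.

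The plot across the pair showed no valley at the gene ends of both-marked pairs. Over 448 such pairs with a gap of at least 100 bp, mean coverage rose along the 3′ part of the plus-strand gene from 68.9% to a highest value of 83.7%. It was 81.2% in the first of 10 bins of the gap, 76.1% in the lowest bin near the middle and 79.5% in the last bin. In 550 pairs with 1 marked gene the coverage stood at up to 71.2% inside the marked gene and at 61.5% in its final bin. It then fell through the gap from 52.0% beside the marked gene to 23.8% beside the unmarked one, and from 18% to 1.5% inside the unmarked gene's 3′ part. In both-marked pairs with gaps over 2 kb a dip was visible as well (158 pairs). Mean coverage fell from 82.2% in bin 8 of the plus-strand gene's 3′ part to 72.5% in its last bin. The gap had 69.5% at the start, 56.8% at the lowest bin and 70.7% at the end. In 252 pairs with 1 marked gene and a gap over 2 kb, coverage fell through the gap from 51.9% to 11.9%.

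The high gap coverage went with the tail-to-tail arrangement. Between 2 marked genes in tandem the gap was covered to 25% and 22.9% (23.9% ± 1.52; 694 gaps), which is 56.1 ± 0.840 percentage points lower. Between 2 marked genes placed head-to-head it was covered to 0.612% ± 0.0973 (445 gaps), 79.4 ± 2.46 points lower. Both differences exceed the SD over replicates by far and had the same direction in each replicate. A tandem gap ends at the promoter of the downstream gene and a head-to-head gap holds both promoters, a difference in content that cannot be told apart from orientation here.

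**Figure D2:**
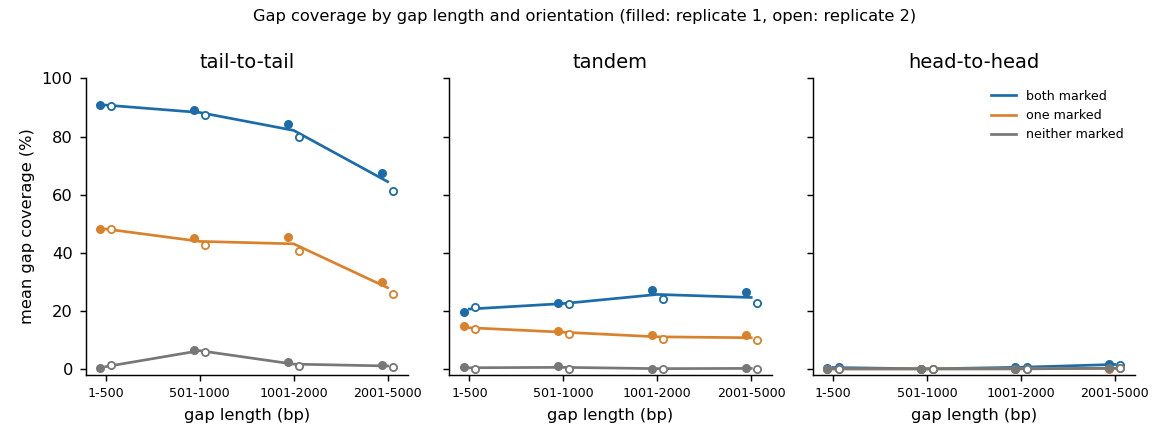
Mean gap coverage (y axis, percent of gap bases in peaks) by gap length class (x axis, bp) in tail-to-tail, tandem and head-to-head pairs with both, 1 or neither gene marked. Filled points are replicate 1, open points replicate 2 and lines their mean. Tail-to-tail pairs with both genes marked lie at 90.8% in the shortest and 64.5% in the longest gaps, above tandem pairs in each class (20.6% to 25.6%).

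Length mattered within the tail-to-tail pairs. With both genes marked the mean coverage was 90.8% ± 0.214 in gaps of 1 to 500 bp (155 pairs), 88.3% ± 1.12 in those of 501 to 1000 bp (69), 82.1% ± 3.23 in those of 1001 to 2000 bp (112) and 64.5% ± 4.40 in those of 2001 to 5000 bp (158). The longest class lies below all others in each replicate. In pairs with 1 marked gene the order was 48.2%, 43.9%, 43.1% and 27.9%, where the middle classes do not differ beyond their spread. Tandem gaps between marked genes showed no such decline (20.6%, 22.5%, 25.6% and 24.6%). Around the 5 kb limit of the rule, both-marked pairs with gaps of 4 to 5 kb had 52.4% ± 5.75 (39 pairs) and those of 5 to 6 kb, outside the rule, 43.1% ± 4.80 (25 pairs). With 1 marked gene these values were 24.4% ± 2.78 (72 pairs) and 18.2% ± 0.594 (50 pairs).

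Whole gaps were often filled. Of the 494 both-marked gaps, 222 (44.9%) lay wholly in peaks in each replicate, 261 were covered in part and 11 (2.23%) had no covered base in either replicate. At least 50% of the gap was covered in each replicate in 390 (78.9%). In 221 pairs (44.7%) a single called peak spanned the whole gap in each replicate. With 1 marked gene 57 of 579 gaps (9.84%) were wholly covered and 168 (29.0%) were bare, and with neither marked 1 was wholly covered and 398 of 423 were bare. Of tandem gaps between marked genes 29 (4.18%) were wholly covered and 258 (37.2%) bare, and of such head-to-head gaps 1 was wholly covered and 437 of 445 were bare.

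**Figure D3:**
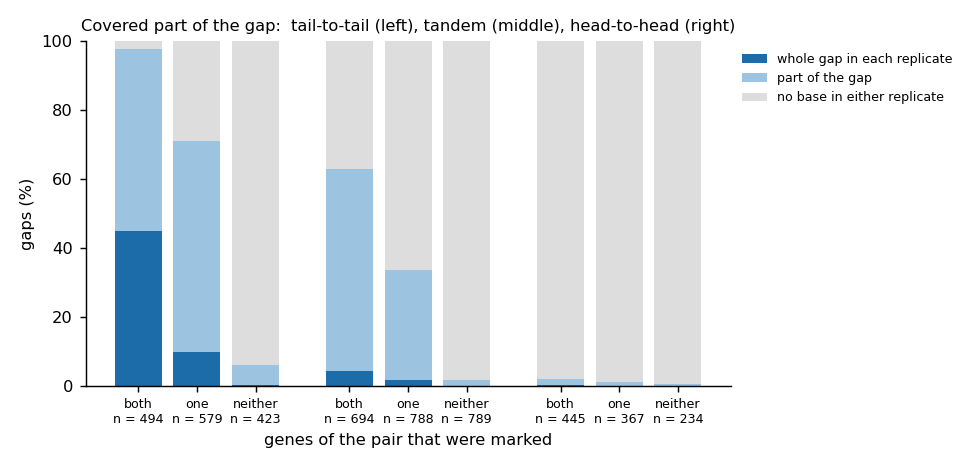
Percent of gaps (y axis) that were wholly in peaks in each replicate, in part, or without a covered base in either replicate, by orientation and by the number of marked genes (x axis, with the number of gaps). The dark part is 44.9% of tail-to-tail gaps with both genes marked, against 4.18% of tandem gaps of that class.

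The shape of the gap followed that of the flanking gene ends. In both-marked pairs the mean coverage of the 3′ part was 78.1% ± 0.446 for the plus-strand gene and 79.2% ± 1.01 for the minus-strand gene, with 90.9% ± 0.201 for the more covered and 66.5% ± 1.25 for the less covered gene of each pair. When pairs were divided by the less covered 3′ part, gap coverage was 56.1% below 25% (68 pairs), 72.9% from 25 to 50% (83), 79.5% from 50 to 75% (137), 89.3% from 75 to 95% (141) and 95.3% from 95% (65). Gap length differed between these groups as well, with medians of 1796, 1060, 1569, 880 and 432 bp, longest in the first and shortest in the last, and its part in the order was not tested. As a description across pairs, which share libraries and annotation, the 3′ parts of partners had a Pearson r of 0.356 in replicate 1 and 0.330 in replicate 2 over all 1504 pairs. Within both-marked pairs r was 0.139 and 0.104 (494 pairs). Gap coverage in replicate 1 and replicate 2 had an r of 0.919 over the 1496 pairs with a gap.

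The authors' fold enrichment of the peaks, a ratio over background, was somewhat lower in the gap than in the better-enriched 3′ part of the pair. Each called peak carries 1 fold value, and these values were averaged with the covered bases as weights. A peak that spans the gap gives its value to the gap and to the 3′ parts alike. This was so in each replicate in 221 of 494 both-marked pairs, so the values do not measure local enrichment. The median in both-marked pairs was 7.95 in the gap and 8.85 in the 3′ part in replicate 1, and 10.4 and 11.7 in replicate 2. In pairs with 1 marked gene it was 5.46 and 7.15 in replicate 1 and 6.75 and 9.21 in replicate 2. The 3′ part with the higher fold was taken in each pair, a choice that favours the gene over the gap. The gap had the higher fold in 77 of 474 both-marked pairs in replicate 1 and in 76 of 465 in replicate 2.

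Past the 3′ end of a marked gene, coverage fell with distance. In pairs with 1 marked gene it was 50.9% ± 2.08 in the first 500 bp past its end, 42.4% in the next 500 bp, 30.3%, 22.5% and then 16.0% ± 2.01 at 2001 to 2500 bp. Marked genes with no coding gene within 10 kb downstream (2806 genes) had 46.4% ± 2.85, 36.6%, 25.2%, 18.2% and 12.9% ± 2.19 in the same steps. The marked upstream gene of a tandem pair with an unmarked downstream gene had 44.3% ± 1.41, 31.4%, 19.3%, 11.3% and 5.99% ± 2.93. The 1-marked tail-to-tail pairs were thus the highest of these 3 groups at each of these steps in each replicate, by 4.52 ± 0.774 percentage points over lone genes in the first step and 3.09 ± 0.174 in the fifth. At 4001 to 4500 bp, with 26 pairs, the difference from lone genes was 0.548 ± 1.05 points and had opposite signs in the replicates. Both-marked pairs, counted from each end in turn, had 78.5%, 72%, 64.7%, 59.8% and 59.1% over the same distance. Their gap bases can enter from both sides, and the far steps can lie beside the other marked gene. In pairs each step holds only gaps at least that long. From the first to the fifth step the 1-marked pairs went from 463 to 202. The gene ends of both-marked pairs went from 678 to 238, whereas all 2806 lone genes entered each step. Over the whole gap, coverage in the 1-marked tail-to-tail pairs was 15.8 ± 0.498 percentage points above that of tandem pairs in which the upstream gene alone was marked (21.8% ± 1.78; 379 gaps). Tandem gaps with the downstream gene alone marked had 1.75% ± 0.367 (409 gaps).

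**Figure D4:**
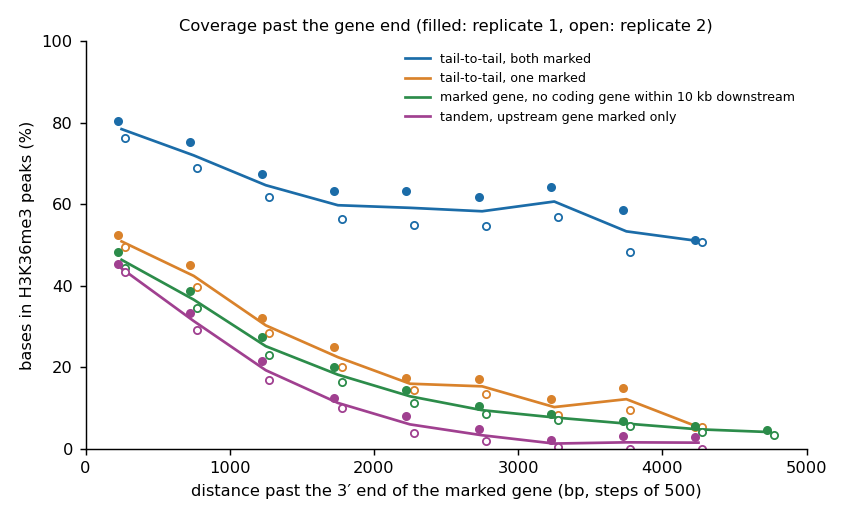
Percent of bases in peaks (y axis) in steps of 500 bp past the 3′ end of a marked gene (x axis, bp, linear), within the gap of the pair, with filled points for replicate 1, open points for replicate 2 and lines for the mean. Coverage in both-marked tail-to-tail pairs is 78.5% in the first and 59.1% in the fifth step, while the other 3 groups fall to between 16.0% and 5.99% in the fifth step.

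Peaks also reached into the unmarked partner. Its 3′ part was covered to 6.74% and 5.38% (6.06% ± 0.963), against 1.83% ± 0.0536 in genes of pairs with neither marked, and its last 1 kb to 17.8% ± 2.65 against 2.59% ± 0.0802. These bases belong to the body that made the gene unmarked, so the values are a description. They rest on the class: 71 of the 582 unmarked partners passed 10% in 1 replicate alone, and with the class and the values from a single replicate the 3′ part had 3.80% (without replicate 1) or 3.90% (without replicate 2). It had 3.1% with marked meaning at least 5% of the body, 14.8% with at least 25%, and 3.71% with the authors' replicated peak set. The first 500 bp inward from the unmarked gene's 3′ end were covered to 41.6% ± 1.90 where the gap was up to 500 bp (119 genes), 27.9% ± 0.0331 at 501 to 1000 bp (77), 19.5% ± 4.24 at 1001 to 2000 bp (133) and 9.43% ± 1.62 at 2001 to 5000 bp (251). Further inward, at 2501 to 3000 bp, these genes still had 11.2% ± 2.54, 4.80% ± 0.680, 9.76% ± 2.03 and 3.95% ± 0.557 in the same order of gap length. In pairs with neither gene marked, the first 500 bp were covered to 1.69% in plus-strand and 2.36% in minus-strand genes, and the bases at 2501 to 3000 bp to 2.70% and 2.89%. Coverage was thus lower further inward but lay above the neither-marked level in all 4 gap classes, by little in the longest gaps. Where the gap was wholly covered (57 pairs, median gap 347 bp), the unmarked 3′ part had 18.3% ± 4.80. A peak touched it in all 57 in each replicate, which a gap covered to its last base all but fixes in advance. Where the gap was covered in part (354 pairs, median gap 2181 bp), the unmarked 3′ part had 6.12% ± 0.524 and was touched in 111. Where the gap was bare (168 pairs, median gap 1370 bp), it had 1.78% ± 0.488 and was touched in 20. The part of gap length in this order was not tested. In 295 of 579 pairs the unmarked gene had no covered base at all.

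Because the 3′ part is part of the body that sets the class, the class was also taken from the upstream 2 of 3 parts of each gene, an alternative chosen after the data were seen. Both genes then passed in 331 pairs, 1 gene in 661 and neither in 512. Gap coverage became 82.5% ± 2.75, 47.5% ± 2.13 and 6.79% ± 0.597, in the same order as before. The 3′ parts, which no longer took part in the class, were covered to 82.8% ± 0.963 where both genes passed, 73.2% ± 0.331 in the passing and 18.2% ± 1.07 in the other gene where 1 passed, and 6.96% ± 0.0584 where neither did. Of the 494 both-marked pairs 153 moved to the class with 1 gene and 12 to the class with neither. Of the 988 genes in both-marked pairs 177 (17.9%) fell under 10% in their upstream parts, against 75 of 582 marked genes (12.9%) in pairs with 1 marked gene and 1182 of all 8155 marked genes (14.5%).

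The base composition of the gap differed little between the classes, with a median GC content of 47.4% for both-marked, 47.7% for 1-marked and 46.1% for neither-marked gaps and soft-masked repeat shares of 19.2%, 20.6% and 20.2%. Gaps under 45% GC were the least covered of their class in each replicate. Both-marked gaps under 45% GC had 73.2% ± 5.0, those of 45 to 50% 81.2% ± 2.74 and those from 50% 83.0% ± 0.661, where the last 2 groups did not differ beyond the SD and had the opposite order in replicate 1. The 1-marked gaps had 28.9% ± 4.72, 36.9% ± 2.09 and 45.6% ± 1.24. The gaps from 50% GC were also the shortest, with medians of 602 bp (both marked) and 1101 bp (1 marked), and their part in the order was not tested.

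Long gaps covered from end to end were found between genes of varied roles. The pair with the longest gap filled in each replicate was Tac4, a tachykinin precursor gene, and Kat7, the gene of a histone acetyltransferase, whose 4993-bp gap (chr11:95269266-95274258) lay in 1 peak in each replicate. The body of Kat7 was covered to 89.1% and 88.7% and that of Tac4 to 40.7% and 40.8%, with 71.6% and 73.5% of its 3′ part. Dstn, which encodes the actin-severing protein destrin, and Rrbp1, a ribosome-binding protein of the endoplasmic reticulum, had a filled gap of 4070 bp (chr2:143943325-143947394). The body of Dstn was covered to 24.4% and 18.9%, and its upstream 2 of 3 parts to 5.97% and 1.91%. Next came Ankrd27/Pdcd5 (2755 bp), Srsf5/Slc10a1 (2675 bp), Topbp1/Cdv3 (2665 bp) and Itpa/Slc4a11 (2498 bp), all with 100% in each replicate. Srsf5 encodes a splicing factor, Slc10a1 the bile acid uptake carrier of liver cells, Topbp1 a DNA damage checkpoint protein and Itpa an inosine triphosphatase. The body of Slc10a1 was covered to 48.7% and 47.8% and its 3′ part to 100% in each replicate.

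Among both-marked pairs the shortest gaps were those of Nelfe/Cfb and Snf8/Ube2z, with 1 bp each, and of Ddx42/Ftsj3 and Rpain/C1qbp, with 2 bp each, and all were covered. Nelfe encodes a subunit of the negative elongation factor, and Cfb complement factor B. Nelfe was covered to 83.6% and 79.9% of its body and Cfb to 49.3% and 39.1%, while the 3′ part of each gene was covered to 100% in each replicate. Cfb overlaps another coding gene, so its coverage may belong in part to that gene.

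The 11 bare gaps between marked genes were the exception. The 4 with the best covered gene ends among those of at least 500 bp were 2810021J22Rik/Zfp39 (4864 bp), Abi2/Raph1 (1133 bp), Dph5/Slc30a7 (4611 bp) and Usp20/Fnbp1 (2619 bp). In the first, the 3′ part of 2810021J22Rik was covered to 71.9% and 66.5% and that of Zfp39, a zinc finger gene, to 61.3% and 53.2%. Raph1, which encodes the actin regulator lamellipodin, had 80.7% and 67.7% of its 3′ part covered, and its partner Abi2, an Abl interactor gene, 29.5% and 25.7%. In Dph5, a gene of diphthamide synthesis, the 3′ part had 37.1% and 38.7%, and in the zinc transporter gene Slc30a7 32.2% and 20.9%. Of the deubiquitinase gene Usp20 20.1% and 22.6% of the 3′ part was covered, and of Fnbp1 77.6% and 73.5%.

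Some gaps differed between the replicates. The largest differences in both-marked gaps of at least 500 bp were seen in Map3k3/Limd2 (85.0% in replicate 1 and 20.8% in replicate 2), Tmem206/Ppp2r5a (70.0% and 16.1%), Lrrc73/Tjap1 (87.3% and 35.5%) and Ankrd13a/1500011B03Rik (100% and 50.03%). All 4 were higher in replicate 1, the replicate with more covered bases genome-wide. Over the both-marked gaps replicate 1 was higher in 175, replicate 2 in 86 and neither in 233, with a median absolute difference of 0.852 percentage points. At the 95th percentile the difference was 38.1 points, so a minority of gaps differed widely.

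Pairs with 1 marked gene spanned a wide range. The unmarked genes with the most covered 3′ parts were just under the threshold in 1 replicate at least. The ranking all but fixes this, because the 3′ part belongs to the body. Rnf208, a RING finger gene next to AL732309.1, had 13.9% and 9.71% of its body and 41.9% and 29.1% of its 3′ part covered, with the 556-bp gap at 100% in each replicate; both genes overlap other coding genes. The water channel gene Aqp11, beside Clns1a, had 39.7% and 28.4% of its 3′ part covered across a 3209-bp gap covered to 76.1% and 53.3%, and its upstream 2 of 3 parts had 0% in each replicate. The others of this kind were Ifi35 beside Vat1, Rhog beside Pgap2 and Exosc3, an RNA exosome subunit gene, beside Trmt10b. Ifi35 had 28.4% and 60.2% of its 3′ part covered, Rhog 35.8% and 27.6%, and Exosc3 28.7% and 27.4%. The upstream 2 of 3 parts of Rnf208, Ifi35, Rhog and Exosc3 had 0% in each replicate, as in Aqp11. Vat1 and Exosc3 overlap other coding genes.

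At the other end were pairs in which coverage stopped at the marked gene. Usp22, which encodes the deubiquitinase of the SAGA complex, had 98.0% and 97.4% of its 3′ part covered. Its 2412-bp gap and the whole of Tnfrsf13b, a TNF receptor superfamily gene of B cells, had 0% in each replicate. Rpl7l1 beside 2310039H08Rik, Cdk5 beside Asic3 and Ly6g5b beside Ly6g5c showed the same, with marked 3′ parts of 95.5% and 95.7%, 98.8% and 94.7%, and 91.3% and 93.5%. The gap beside Rpl7l1 overlaps another annotated gene. Asic3 encodes an acid-sensing ion channel of sensory neurons and Cdk5 a kinase best known from neurons. In the map of peaks the block over Usp22 ends just inside the gene, whereas the block over Riox1 runs on into the gap.

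**Figure D5:**
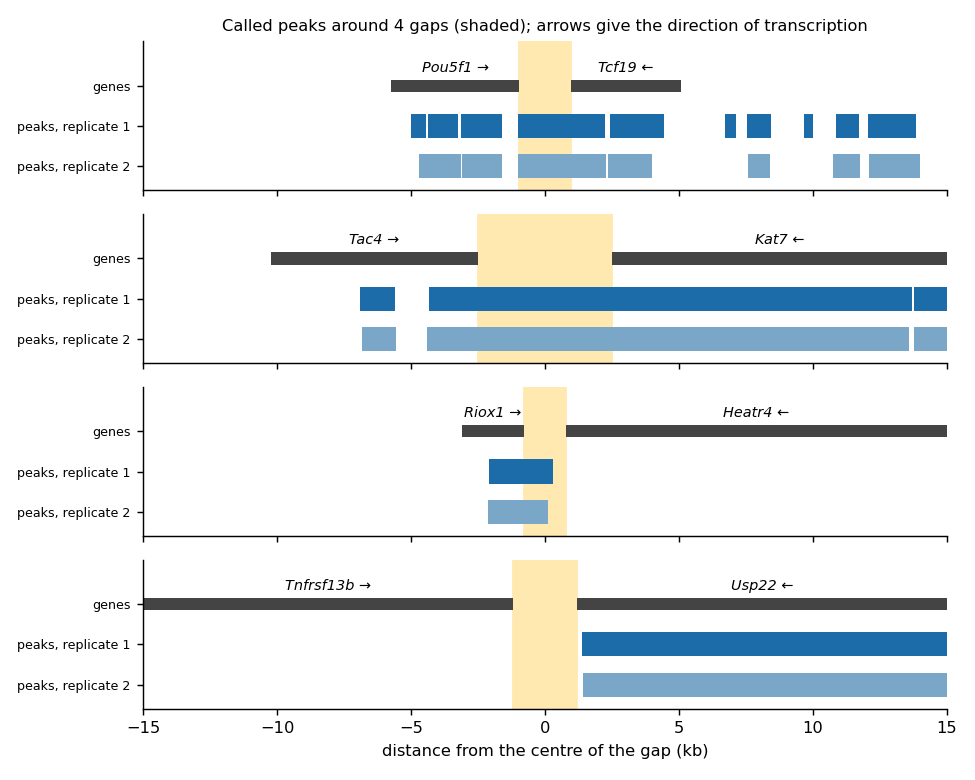
Called peaks of replicate 1 and replicate 2 (blocks), annotated gene spans (grey, arrows for the direction of transcription) and the gap (shaded) for 4 tail-to-tail pairs, by distance from the centre of the gap (x axis, kb). Peaks fill the gaps of Pou5f1/Tcf19 and Tac4/Kat7 in each replicate, cover 69.8% and 58.0% of that of Riox1/Heatr4, and stop before that of Tnfrsf13b/Usp22.

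Pairs with neither gene marked rarely had a covered gap. Of the 271 pairs without a covered base in either gene 2 had a covered gap base, and the mean gap coverage of those with a gap was 0.362% ± 0.124 (269 gaps). The most covered gaps of at least 500 bp in the neither-marked class were those of Map3k13/Tmem41a (886 bp, 100% in each replicate), Pde6b/Atp5k (846 bp, 100% and 98.5%) and Gm45521/Dnase1l3 (3896 bp, 64.3% and 73.8%). Tmem41a missed the class by 1 replicate, with 20.1% and 9.05% of its body covered. Pde6b, a phosphodiesterase gene of rod photoreceptors, had 6.93% and 6.69% of its body covered and the ATP synthase subunit gene Atp5k 9.96% and 0%. Gm45521 and Dnase1l3 had no covered base in either replicate, so their gap peaks touch neither gene.

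Among genes of the stem cell state, Pou5f1, which encodes the pluripotency factor OCT4, forms a tail-to-tail pair with Tcf19 across 1961 bp (chr17:35510773-35512733). The whole gap was covered by 1 peak in each replicate. The body of Pou5f1 was covered to 68.8% and 64.8% and that of Tcf19 to 80.2% and 72.2%, with 3′ parts of 62.9% and 63.6% and of 91.7% and 94.9%. The other listed pluripotency gene in such a pair, Lin28b, an inhibitor of let-7 processing, was bare in replicate 1 and covered to 0.419% in replicate 2, and its partner Bves and their 4140-bp gap had no covered base. Of the 29 listed genes 2 are thus members, 1 of them marked. Of the whole list 89.7% were marked, against 52.2% of all tail-to-tail members.

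Of 25 genes that write, erase or read H3K36 methylation 6 are in a tail-to-tail pair and 5 of these were marked, against 88% of the whole list and 52.2% of all tail-to-tail members. Setd2, the gene of the enzyme that makes the mark itself, faces Nradd across 2501 bp covered to 81.2% and 81.6%, with 77.9% and 71.6% of the 3′ part of Setd2 and 92.0% and 100% of that of Nradd. Nsd1, which encodes a dimethylating enzyme for the same lysine, faces Rab24 across 1417 bp covered to 100% in each replicate. Ash1l, a further methyltransferase gene, faces Gm43738 across a gap covered to 27.8% and 32.1%. Ash1l, Gm43738 and Rab24 each overlap another coding gene, so their coverage may belong in part to that gene. Riox1, a histone demethylase gene, was covered over its whole 3′ part, and the gap to the unmarked Heatr4 was covered to 69.8% and 58.0%. Smyd2 had 17.6% and 25.2% of its body covered and its gap to Ptpn14, which overlaps another annotated gene, 0% and 41.6%. Phf19, a Polycomb-associated reader gene, and Cutal were both unmarked and their gap was bare.

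Of 26 listed Polycomb genes 6 are in tail-to-tail pairs, all of them marked and 5 of them beside a marked partner. The unmarked Phf19, named above, was placed in the H3K36 list and is not among them. Of the whole list 76.9% were marked, and over all tail-to-tail members 52.2% were marked and 62.9% of the marked ones had a marked partner. Ezh2, the catalytic subunit gene of Polycomb repressive complex 2, faces the ubiquitin ligase scaffold gene Cul1 across 3999 bp covered to 100% and 91.4%. The upstream 2 of 3 parts of Cul1 had 7.25% and 9.58%, under the threshold. The gaps of Jarid2/Dtnbp1 (431 bp), M6pr/Phc1 (50 bp) and Cisd3/Pcgf2 (201 bp) were covered to 100% in each replicate, and that of Gpr160/Phc3 (2178 bp) to 73.7% and 80.1%. Ezh1, the paralog of Ezh2, had 81.4% and 80.9% of its 3′ part covered, but the 390-bp gap and its partner Cntnap1, a gene of myelinated axons, had 0% in each replicate. Of 16 genes of the DNA methylation list 2 are members, 1 of them marked, against 81.25% of the whole list. Uhrf2 was marked and shared a 4724-bp gap with Gldc covered to 95% and 89.1%. Tet3, a gene of 5-methylcytosine oxidation, was unmarked (1.29% and 2.21%) beside the marked Bola3 and a bare gap of 2236 bp.

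Genes of basic cell functions in tail-to-tail pairs were mostly marked, with the 52.2% of all member genes as the comparison, and 62.9% of all marked members had a marked partner. By symbol pattern 20 of 21 cytoplasmic ribosomal protein genes were marked and 13 had a marked partner as well, where the pattern also takes in Rps19bp1, Rps6kl1 and Rpl7l1. For mitochondrial ribosomal protein genes these counts were 13 of 14 and 8, for proteasome genes 11 of 12 and 7, for respiratory chain genes 19 of 22 and 17, and for splicing genes 11 of 11 and 8. The respiratory chain pattern likewise takes in Ndufaf1, Ndufaf7, Ndufaf8 and Atp5s, and the proteasome pattern Psmg4 and Psmf1, none of them core subunit genes. All 5 lists are small, and over all coding genes of each list between 84% and 92.3% were marked. Between Rps2 and Ndufb10 (130 bp), Rpl36 and Lonp1 (53 bp) and Psmd13 and Cox8b (301 bp) the gap was covered to 100% in each replicate. Other both-marked pairs of these lists had far less. Examples with longer gaps are Mrpl58/Atp5h (3014 bp, 26.0% and 24.9%), Cox5b/Actr1b (4432 bp, 33.4% and 31.6%) and Dennd4c/Rps6 (4056 bp, 44.1% and 42.5%). The unmarked members of these lists were Rpl36al (3.18% and 22.9% of the body), Mrpl41 (13.1% and 0%), the thymic proteasome gene Psmb11 (0% in each replicate), Atp5s (4.24% and 7.93%), Cox6b2 (0% in each replicate) and Atp5k, named above.

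Zfp genes (zinc finger genes) were marked in 29 of 40 cases, 21 of them with a marked partner, against 52.2% and 62.9% over all members and 59.9% of all Zfp genes marked. Of 91 olfactory receptor genes (Olfr) in tail-to-tail pairs 0 were marked, and 1 had a marked partner: Olfr692 faces Fam160a2 across 1855 bp covered to 0.809% and 1.83%. None of the 3 vomeronasal receptor (Vmn), 2 keratin (Krt) and 3 defensin (Def) genes in tail-to-tail pairs was marked. Over all coding genes 1 of 1134 Olfr genes was marked, and 0 of 330 Vmn, 0 of 53 Krt and 0 of 64 Def genes. The absence of marks is thus a trait of these lists as a whole and not of their tail-to-tail members. Vmn1r32 had a marked partner, the checkpoint gene Mad2l1, and their 4959-bp gap was covered to 13.4% and 21.0%. Both receptor genes had no covered base, and the gap beside Fam160a2 was close to bare. No Hox gene is in a tail-to-tail pair.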

How the data were processed

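H3K36me3 ChIP-seq peaks of E14TG2a.4 cells, 2 biological replicates forming 1 group, were used as deposited. Per the deposited file lists, the authors called peaks on each replicate alone on mm10 and kept those supported by pseudoreplicates; the sources used here do not name an aligner or caller, nor the read number. Each deposited peak carries a fold enrichment (a ratio over background) and a p-value and q-value as −log10. The fold is the authors' value and was used only within a set. A replicate with deeper sequencing can yield more called bases, and depth is unknown.

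Gene bodies came from GENCODE M21 on GRCm38, with the longest record per symbol (27 records left out), on 21 chromosomes, and 0 peaks lay past a chromosome end. Neighbours were the coding genes on each side of a stretch free of coding genes. Covered shares were computed from the union of peaks with Python 3.11.15, numpy 2.4.6 and pandas 2.3.3, and plotted with matplotlib 3.10.9. A gap's share was averaged over pairs and then over replicates (mean ± SD), without a test. The 8 pairs with a gap of 0 bp have no gap value. Of the 3008 genes 347 overlap another coding gene, and 55 gaps overlap another annotated gene. The computation was checked with made peaks laid over annotated pairs, and it returned the values put in. The same made peaks stood for both replicates and genes overlapping others were left out. The check therefore covers the arithmetic and not differences between replicates.

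Members and lists were chosen with earlier results of these data known. Named pairs were those with the most covered gaps of at least 1 kb, the bare gaps of at least 500 bp with the best covered ends, the most and least covered unmarked partners, the most covered gaps of neither-marked pairs, the shortest gaps, the largest differences between replicates, and all pairs holding a listed pluripotency, H3K36, Polycomb or DNA methylation gene, ranked by the lower replicate. Pairs of basic-function lists and of receptor genes were chosen after their values were seen. Other peak sets, thresholds, gap limits and ways of averaging were tried as alternatives, as was leaving out 1 replicate.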

Additional observations from a re-analysis of the deposited data

How the results depend on the processing

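The order both, 1 and neither marked held in each alternative run, and the count of both-marked pairs lay within 1.5 times of 494 throughout. Gap coverage between both marked genes became 83.5% with the authors' replicated peak set, 84.4% with a threshold of 25% of the body, 87.4% with gaps up to 2 kb, 69.6% with pooled bases and 82.5% with the class from the upstream 2 of 3 parts of the gene (chosen after seeing the data). With 1 marked gene it became 39.999%, 49.7%, 45.1%, 31.0% and 47.5% in the same order, 31.0% with a threshold of 5% and 35.3% with the class from the other replicate. With neither marked it became 2.19% with the unthresholded sets, which also rest on other alignments, 1.42% with −log10 q of at least 5, 1.35% with the replicated set, 0.979% and 6.37% with thresholds of 5% and 25%, 2.44% with gaps up to 2 kb, 1.42% with pooled bases and 6.79% with the class from the upstream parts. The 3′ part of the unmarked partner became 3.71% with the replicated set, 3.1% and 14.8% with thresholds of 5% and 25%, 8.50% with gaps up to 2 kb, 4.14% with pooled bases, 17.8% for the last 1 kb and 18.2% with the class from the upstream parts. The difference between tail-to-tail and tandem gaps became 53.3 points with the unthresholded sets, 57.9 with −log10 q of at least 5, 55.0 and 59.0 with thresholds of 5% and 25%, 64.0 with gaps up to 2 kb, 57.3 with genes overlapping no other coding gene, 45.7 with pooled bases, 55.1 with the class from the other replicate and 57.7 with the class from the upstream parts. Leaving out 1 replicate gave 521 to 540 both-marked pairs, gap coverage of 77.8% to 80.4%, 33.8% to 36.2% and 1.26% to 1.52%, a partner's 3′ part of 3.80% to 3.90% and a difference of 55.37 to 55.40 points. A higher threshold or the upstream parts place genes covered at their 3′ end among the unmarked, and pooled bases give long gaps more weight, by construction; the cause of the other shifts was not tested. No paired analysis between sample groups was possible because the 2 samples form 1 group; differences between classes of pairs were taken within each replicate. A called peak set gives no depth, so a bare gap means only that no peak was called there.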
